A study of Mus musculus with 12 samples.

Results

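Chemokine ligands and receptors were followed across 12 arrays of mouse dental epithelium colonies. The members are the genes whose array probes map, through their accession, to a mouse symbol of the form Ccl, Cxcl, Ccr or Cxcr with a number, or to Cx3cl1, Cx3cr1, Xcl1 or Xcr1. These were 53 genes (34 ligands and 19 receptors) read by 67 of 41174 probes, and 50 of them (32 ligands and 18 receptors) were among the 31064 genes tested. The colonies had been grown flat in culture from labial cervical loops. The cervical loop is the epithelial tip of the mouse incisor in which stem cells renew the tooth throughout life. The double null colonies (4 arrays, replicates 1 to 4) lacked both Bmi1, a polycomb repressor subunit, and Ink4a/Arf, the cell cycle inhibitor locus that Bmi1 represses. The Bmi1 null colonies (4 arrays, replicates 1 to 4) lacked Bmi1 alone, and the wild-type colonies (4 arrays, replicates 1, 3, 4 and 5) carried neither deletion. All 3 genotypes were on a mixed genetic background, each array held RNA of a single colony, and no age or sex of the animals is given. RNA was amplified, labelled with 1 dye and hybridised to Agilent whole mouse genome arrays.

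Chemokines are small secreted proteins that guide migrating cells along a gradient. Each binds 1 or more receptors of the G protein-coupled type, and binding through Gi proteins turns on cell movement. CC and CXC chemokines are named for the spacing of their first cysteines. CXC ligands with the ELR motif act on Cxcr2 and attract neutrophils, Ccl11 and Ccl24 attract eosinophils through Ccr3, and Ccl19 and Ccl21 guide cells with Ccr7 into lymphoid tissue. Epithelial cells make many of the ligands after signals that act through NF-kB, whereas most of the receptors are best known on leukocytes.

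Levels are the log2 processed signal of a gene's brightest probe minus the 75th percentile of its array, so that 0 is the brightness of that percentile. Differences are on the same log2 scale, from 1 limma fit of all 12 arrays, and a gene is called where its adjusted p, taken over all 31064 genes, is under 0.05. The spread of signals within an array differed between genotypes: the interquartile range was 4.66 ± 0.42 in double null, 4.52 ± 0.18 in Bmi1 null and 2.56 ± 0.06 in wild-type arrays (log2, SD, n = 4 each), and 80.1%, 82.5% and 94.6% of probes were well above background in that order. Spearman correlations ran from 0.67 to 0.78 between a mutant and a wild-type array and from 0.94 to 0.97 between a double null and a Bmi1 null array. The main Bmi1 probe averaged -2.52 ± 0.21 in double null, -2.36 ± 0.15 in Bmi1 null and -0.27 ± 0.46 in wild-type colonies. It was well above background on all 4 arrays of each genotype, both nulls included. The other Bmi1 probe averaged -5.97 ± 0.73, -6.16 ± 0.56 and -2.03 ± 0.18 in that order. That probe was well above background on 1, 1 and 4 of 4 arrays. The Cdkn2a probe, which reads the Ink4a/Arf locus, was well above background on 0 of 4 double null, 4 of 4 Bmi1 null and 1 of 4 wild-type arrays. The 12 epithelial markers, keratins among them, were well above background on every array. The arrays lay on 5 slides. Slide 2 had an array from every genotype, slide 3 had 2 double null arrays and 1 Bmi1 null array, and slide 1 had 2 Bmi1 null and 2 wild-type arrays.

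The double null colonies differed from the Bmi1 null colonies in few chemokine genes. Of 50 members, Ccl11, Cxcl5 and the receptor Ccr1l1 were called higher in double null colonies and the receptor Cxcr6 lower, and 46 were not called. Of all genes tested, 7.43% were called in this comparison, 2.81% higher and 4.62% lower, so that 4 of 50 members is near the background. The members' median difference was 0.10, against -0.06 for all genes. At an unadjusted p under 0.05 there were 8 members and 21.7% of all genes.

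Ccl11, known as eotaxin, attracts eosinophils through Ccr3, and it had the largest difference of the 50 members. It stood at -3.12, -0.94, -1.90 and -0.09 in the double null colonies, against -8.27, -7.81, -7.62 and -7.33 in the Bmi1 null colonies. The wild-type colonies had -1.73, -1.47, -1.82 and -2.04. The probe was well above background on all 4 double null and all 4 wild-type arrays but on 0 of 4 Bmi1 null arrays, and the Bmi1 null values did not overlap those of either other genotype. With the Bmi1 null level set to its lowest measurable value, double null colonies had at least 28.9-fold more Ccl11 signal (limma adjusted p = 5.32e-05). By the same rule Bmi1 null colonies were at least 24.4-fold lower than wild type (fitted difference -5.99, limma adjusted p = 4.05e-07). These folds set the bright group's mean against the lowest signal that was well above background on each dim array, or the probe's own where that was higher. These folds, and those of other genes below, hold only for the scaling described above, and their p-values belong to the fitted differences. Over 5 scalings the Bmi1 null minus wild-type difference of Ccl11 ran from -5.99 to -1.33, and it was called lower in all 5. Between double null and wild-type colonies the difference was 0.25 ± 0.50 (SE, n = 4 each, limma adjusted p = 0.647), with overlapping values. That call depends on the scaling: Ccl11 was called higher against wild type when scaled to the median (1.25), when quantile normalized (1.34) and in the authors' table (1.09).

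The double null over Bmi1 null difference of Ccl11 was 6.24 ± 0.50 as fitted (SE, n = 4 each). It was 5.91 within slide 2 and 6.02 within slide 3. It ran from 5.77 to 6.78 when each array was left out in turn, and it was called each time in limma. With normexp background correction of the raw spot medians, which compresses dim values, it was 2.35 (limma adjusted p = 0.00966), and in the authors' value table it was 2.42 (limma adjusted p = 0.00605). Double null replicate 4 had both the highest Ccl11 value and the highest summed linear signal of 10 fibroblast and mesenchymal markers. That sum was 4.91 to 38.4 over the double null arrays, of which 38.4 was replicate 4 and the others were at most 8.84, 4.87 to 9.60 over the Bmi1 null arrays and 10.6 to 13.0 over the wild-type arrays, in units of each array's 75th percentile. None of the 10 genes was called between double null and Bmi1 null colonies in limma, and without replicate 4 the Ccl11 difference was 5.77.

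The neighbours of Ccl11 did not share its call. In the RefSeq gene order of mouse chromosome 11, Ccl2, Ccl7, Ccl11, Ccl12, Ccl8 and Ccl1 follow each other, and all but Ccl11 attract monocytes, lymphocytes or both. Between double null and Bmi1 null colonies none of the other 5 was called, with log2 differences of -0.07 for Ccl2, 1.28 for Ccl7, 0.37 for Ccl12, -0.63 for Ccl8 and -0.43 for Ccl1 (limma adjusted p = 0.246 to 0.917). Ccl2, the main monocyte attractant, stood at -0.30, 0.06, -0.01 and -0.37 in double null, -0.58, -0.12, -0.12 and 0.48 in Bmi1 null and 1.62, 0.84, 1.69 and 0.81 in wild-type colonies. Its double null and Bmi1 null values overlapped, and every wild-type value lay above both. Against wild type, Ccl2 differed by -1.40 in double null and -1.32 in Bmi1 null colonies. Those values were close to the medians of all genes, -1.39 and -1.24. Ccr3, the receptor of Ccl11, did not differ by more than the spread between the mutants (0.30 ± 0.39, SE, n = 4 each, limma adjusted p = 0.725), and its other probe gave -0.56 ± 0.46 (SE, limma adjusted p = 0.537 over probes).

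**Figure D1:**
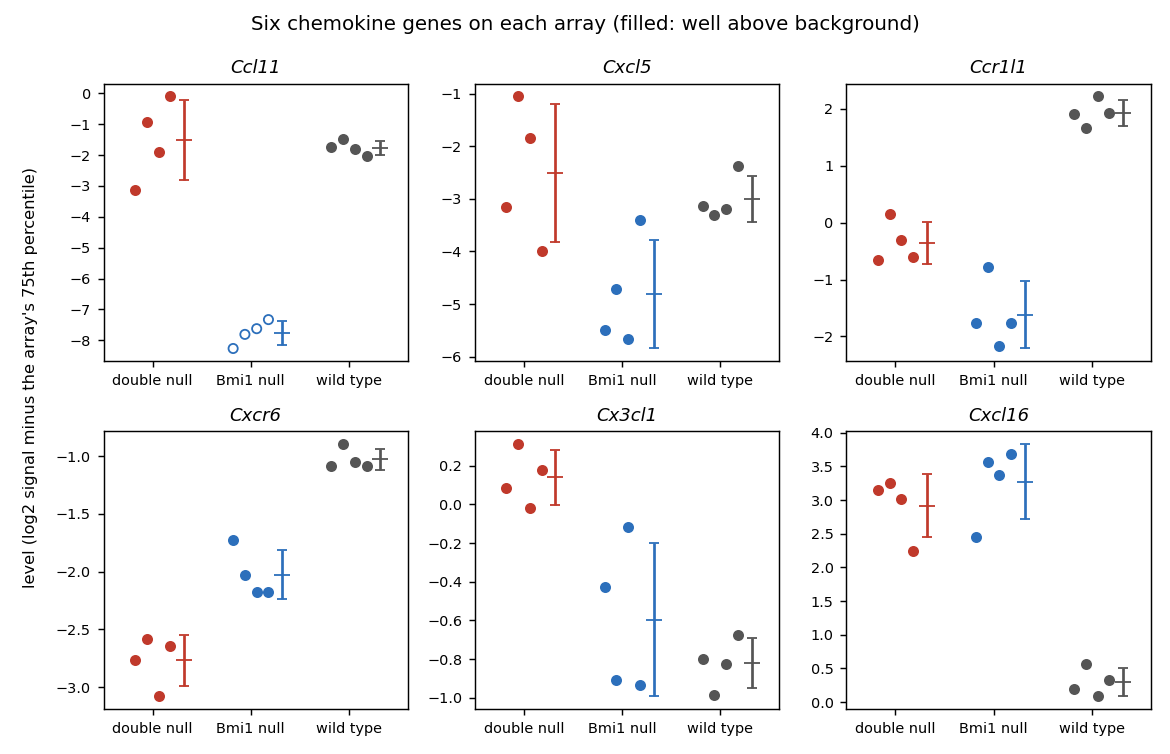
Levels of 6 chemokine genes on each of the 12 arrays (vertical axis, log2 signal relative to the 75th percentile of the array), with double null, Bmi1 null and wild-type colonies from left to right, and a bar for the mean and SD of each genotype. Filled points are well above background and open points are not. Ccl11 is open on all 4 Bmi1 null arrays, at -8.27 to -7.33, and filled on the other 8.

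Cxcl5, an ELR ligand that attracts neutrophils, stood at -3.16, -1.05, -1.85 and -4.00 in double null colonies, against -5.49, -4.71, -5.67 and -3.41 in Bmi1 null colonies. The wild-type colonies had -3.14, -3.31, -3.20 and -2.37. Double null replicate 4 lay below Bmi1 null replicate 4, so the mutants overlapped. The difference was 2.30 ± 0.61 (SE, n = 4 each, limma adjusted p = 0.0391), 2.86 within slide 2 and 2.09 within slide 3. The call was lost with normexp (1.37), quantile normalization (2.07), slide as a fixed block (2.44), the replicate block (2.30) and the 2 genotypes fitted alone (2.30). It was also lost without any 1 of the 4 wild-type arrays, of Bmi1 null replicates 1, 2 and 3 or of double null replicates 2 and 3, with differences of 1.82 to 2.34.

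Ccr1l1 is a receptor-like paralogue of Ccr1 with little known of its ligands. It stood at -0.66, 0.15, -0.30 and -0.60 in double null colonies, against -1.76, -0.78, -2.17 and -1.77 in Bmi1 null colonies. All 4 wild-type values were above both, at 1.91, 1.67, 2.22 and 1.93. The mutants did not overlap, and the double null values lay between those of the other genotypes. The difference was 1.27 ± 0.29 (SE, n = 4 each, limma adjusted p = 0.0208), 0.48 within slide 2 and 1.54 within slide 3. The call held under each of 4 other scalings. It was lost with slide as a fixed block (1.25, limma adjusted p = 0.125), with the 2 genotypes fitted alone (1.27, limma adjusted p = 0.0791) and without Bmi1 null replicate 3 or 4 or double null replicate 2 or 3, with differences of 1.08 to 1.25. Ccr1 itself was not well above background on any of the 12 arrays.

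Cxcr6 is the receptor of Cxcl16. It stood at -2.77, -2.58, -3.08 and -2.64 in double null colonies, against -1.72, -2.03, -2.17 and -2.17 in Bmi1 null colonies and -1.09, -0.89, -1.05 and -1.08 in wild-type colonies. The 3 genotypes did not overlap, with the double null lowest. The double null minus Bmi1 null difference was -0.74 ± 0.18 (SE, n = 4 each, limma adjusted p = 0.027), -1.05 within slide 2 and -0.53 within slide 3. No other scaling kept the call: the difference was -0.67 when scaled to the median, -0.57 when quantile normalized, -0.43 in the authors' table and -0.15 with normexp. It was also lost with slide as a fixed block (-0.82, limma adjusted p = 0.161), with the replicate block and with the 2 genotypes fitted alone (-0.74 in both), and without Bmi1 null replicate 1 or 2 or double null replicate 3, with differences of -0.74 to -0.64.

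A few members came near the threshold in the same comparison. Cx3cl1, the membrane-bound ligand fractalkine, did not overlap between the mutants, at 0.08, 0.31, -0.02 and 0.18 in double null and -0.43, -0.91, -0.12 and -0.93 in Bmi1 null colonies. Its difference was 0.74 ± 0.21 (SE, n = 4 each, limma adjusted p = 0.0516), and without Bmi1 null replicate 3 it was 0.90 and called (limma adjusted p = 0.0234). Ccl6, a macrophage attractant known in rodents, stood at -2.96, -4.34, -4.00 and -1.38 in double null and at -0.96, -1.69, -2.06 and -1.50 in Bmi1 null colonies. Double null replicate 4 alone lay within the Bmi1 null values: the difference was -1.62 ± 0.52 with it (SE, n = 4 each, limma adjusted p = 0.0845) and -2.21 without it (limma adjusted p = 0.00448). Cxcr4, the receptor of Cxcl12, had a difference of 0.92 ± 0.37 on 3 double null arrays, since replicate 1 was marked as an outlier spot there (limma adjusted p = 0.173). Without Bmi1 null replicate 3 that difference was 1.31 and called (limma adjusted p = 0.013), and the other Cxcr4 probe gave 1.09 ± 0.32 (SE, limma adjusted p = 0.0529 over probes). Over all members, the double null and Bmi1 null values did not overlap in 5 of 50, against 13.8% of all genes.

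**Figure D2:**
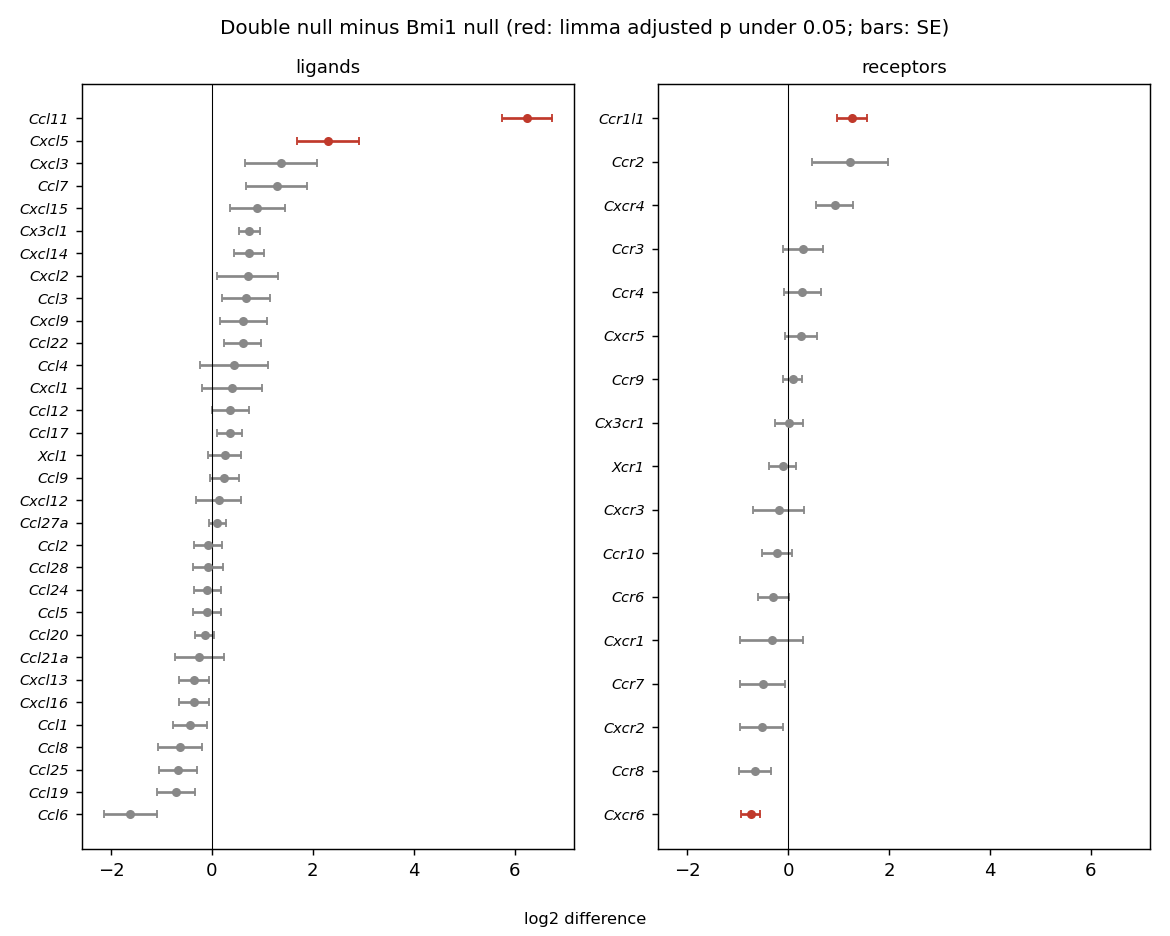
Log2 differences, double null minus Bmi1 null (horizontal axis), of the 32 ligands tested (left) and 17 of the receptors (right), with bars for the SE. Red points are called in limma: Ccl11 at 6.24, Cxcl5 at 2.30, Ccr1l1 at 1.27 and Cxcr6 at -0.74, and the others are grey.

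**Figure D3:**
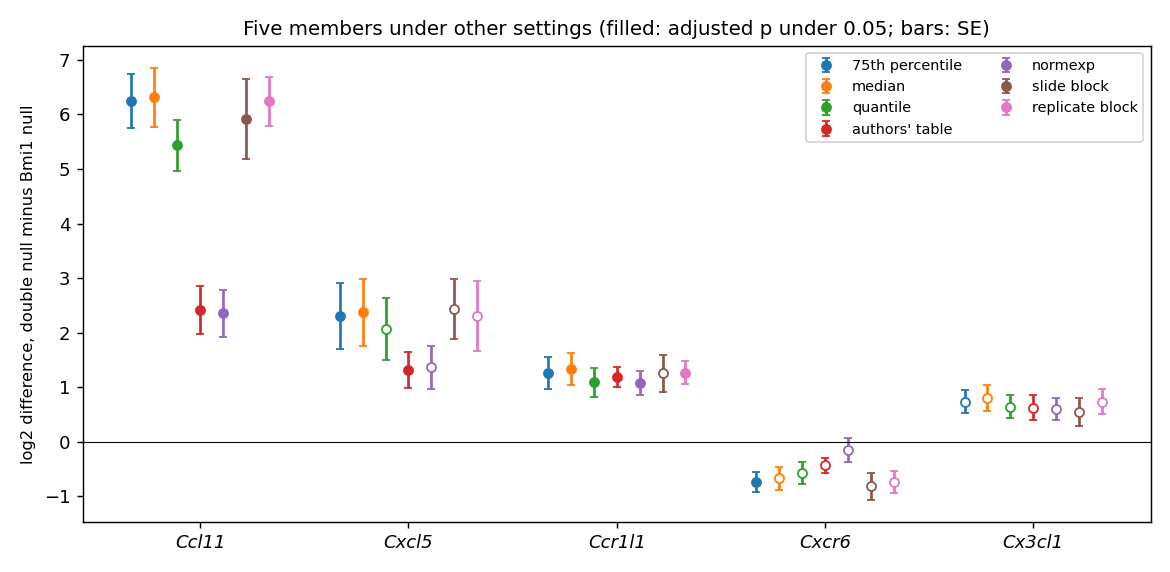
Log2 differences of 5 members between double null and Bmi1 null colonies (vertical axis) under 5 scalings and 2 blocks, with bars for the SE and filled points where the limma adjusted p is under 0.05. Ccl11 is filled in all 7, from 2.35 to 6.31, and Cxcr6 is filled in 1.

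The ELR ligands of Cxcr2 had a wider spread among the colonies of each mutant than among wild-type colonies, a difference in SD that was not tested and that 42 of the 50 members (84%) and 60.5% of all genes also had. All 5 were tested (Cxcl1, Cxcl2, Cxcl3, Cxcl5 and Cxcl15), and they are neighbours on chromosome 5. Set against wild type, 0 of the 5 were called in double null colonies, where 85.4% of all genes were (25.7% higher and 59.7% lower). That count of 0 belongs to the 75th percentile scaling. Cxcl5 was called higher in 3 of 5 scalings (up to 2.48), Cxcl3 in 2 (up to 2.22), Cxcl2 in 1 (1.29) and Cxcl15 in 1 (1.25). The other probe of Cxcl15 was called lower in double null than in wild-type colonies, at -4.66 ± 0.43 (SE, limma adjusted p = 9.43e-07 over probes), so the probes of Cxcl15 disagreed. Cxcl1 stood at 0.91, 0.65, -0.32 and -1.53 in double null, 0.89, -0.88, -1.81 and -0.09 in Bmi1 null and -0.17, -0.10, 0.53 and 0.69 in wild-type colonies. The 3 genotypes overlapped, with SDs of 1.11, 1.15 and 0.44. Cxcl2 stood at -3.73, -5.82, -3.99 and -2.40 in double null, -4.58, -5.84, -3.95 and -4.42 in Bmi1 null and -2.78, -3.69, -2.95 and -2.69 in wild-type colonies. The SD of Cxcl2 was 1.41 in double null, 0.81 in Bmi1 null and 0.46 in wild-type colonies, and it was also widest in double null colonies for Cxcl3, Cxcl5 and Cxcl15.

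Cxcl3 was well above background on 3 of 4 double null, 0 of 4 Bmi1 null and 2 of 4 wild-type arrays. It stood at -4.28, -5.01, -4.43 and -8.03 in double null colonies, against -6.85, -6.18, -7.93 and -6.25 in Bmi1 null colonies. Double null replicate 4 was the lowest of these 8 arrays, and the other 3 double null arrays lay above all 4 Bmi1 null arrays. Cxcl3 was at least 1.77-fold higher in double null colonies and not called (limma adjusted p = 0.299), and without replicate 4 its fitted difference was 2.23 and called (limma adjusted p = 0.0124). The double null minus Bmi1 null differences of Cxcl1, Cxcl2 and Cxcl15 were 0.40 ± 0.59, 0.71 ± 0.60 and 0.90 ± 0.54 (SE, n = 4 each), and none was called. The other Cxcl15 probe gave -0.33 ± 0.43 here, the opposite direction.

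**Figure D4:**
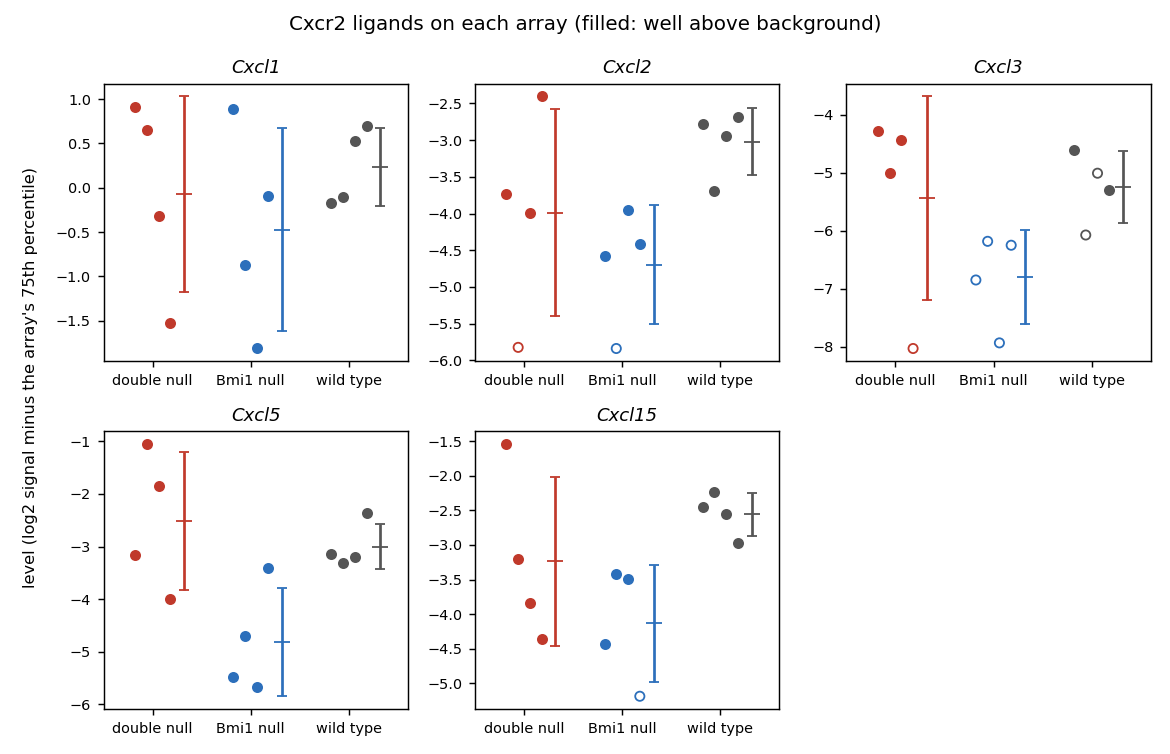
Levels of the 5 ELR ligands on each array (vertical axis, log2 signal relative to the 75th percentile of the array), in double null, Bmi1 null and wild-type colonies from left to right, with the mean and SD. Filled points are well above background. For Cxcl1 the SD is 1.11 in double null, 1.15 in Bmi1 null and 0.44 in wild-type colonies.

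The promoters of 3 of these neighbours and of Cxcl9 are shown because they hold the same NF-kB string although their values differed in pattern. The sequences are the 250 bases before the gene start in RefSeq, build GRCm38.p6, written 5′ to 3′ on the gene's strand. Capitals mark each match to GGGNNTTTC on either strand or, in Cxcl3, to the E-box CACGTG as well.
Cxcl1 (chr5:90890995-90891244, + strand): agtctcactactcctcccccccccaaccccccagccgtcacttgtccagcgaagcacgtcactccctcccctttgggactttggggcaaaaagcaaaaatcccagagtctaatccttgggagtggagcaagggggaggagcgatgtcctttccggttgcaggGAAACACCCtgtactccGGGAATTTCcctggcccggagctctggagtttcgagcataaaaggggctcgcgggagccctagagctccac
Cxcl2 (chr5:90903649-90903898, + strand): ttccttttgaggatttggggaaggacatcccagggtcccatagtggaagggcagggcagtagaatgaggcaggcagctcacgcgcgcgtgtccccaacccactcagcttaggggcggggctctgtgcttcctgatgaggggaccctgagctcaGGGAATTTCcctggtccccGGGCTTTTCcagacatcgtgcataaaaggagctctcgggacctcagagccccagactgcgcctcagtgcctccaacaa
Cxcl3 (chr5:90785851-90786100, + strand): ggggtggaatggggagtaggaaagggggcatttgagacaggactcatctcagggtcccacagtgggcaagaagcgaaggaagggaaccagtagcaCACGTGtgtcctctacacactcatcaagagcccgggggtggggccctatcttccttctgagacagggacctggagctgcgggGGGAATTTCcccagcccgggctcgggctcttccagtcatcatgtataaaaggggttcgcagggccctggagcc
Cxcl9 (chr5:92328080-92328329, - strand): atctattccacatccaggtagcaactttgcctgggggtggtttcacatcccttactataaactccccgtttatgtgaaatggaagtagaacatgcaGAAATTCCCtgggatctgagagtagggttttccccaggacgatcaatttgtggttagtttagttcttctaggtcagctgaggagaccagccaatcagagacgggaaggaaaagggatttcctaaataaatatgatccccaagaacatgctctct

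The matches began 88 and 71 bases before the start in Cxcl1, 97 and 78 in Cxcl2, 73 in Cxcl3 and 154 in Cxcl9. RefSeq gave 44 promoters for 40 of the member genes, each of 300 bases, from 250 before to 50 after the start. GGGNNTTTC lay on either strand in 11 of the 44 (25%), against 4.36% of all 32851 promoters. The AP-1 string TGANTCA lay in 8 of the 44 (18.2%), against 7.81% of all, and CACGTG in 2 (4.55%), against 7.15%. The strings do not overlap each other in the promoters shown. A match describes letters only, and promoters of neighbouring paralogues share ancestry.

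Against wild type, most chemokine genes were lower in both mutants, on arrays where most genes were lower. In Bmi1 null colonies 45 of 50 members were called lower and 1 higher, while 83.5% of all genes were called, 58.3% lower and 25.2% higher. In double null colonies 39 of 50 were called lower and 2 higher, while 85.4% of all genes were called, 59.7% lower and 25.7% higher. Values did not overlap with wild type in 46 members for Bmi1 null and 39 for double null colonies, against 80.1% and 81.3% of all genes. The median difference of all genes was -1.39 for double null and -1.24 for Bmi1 null colonies and moved to -0.07 and -0.09 in the authors' table, so the values below that are called relative have that median taken off, whereas calls and p-values belong to the fitted difference. The members' relative median was -0.69 in double null and -1.09 in Bmi1 null colonies. Under 5 scalings (75th percentile, median, quantile, normexp and the authors' table), 23 of 50 members in double null and 28 in Bmi1 null colonies were called lower in all 5, against 26.2% and 29.4% of all genes.

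The 2 mutant comparisons share the wild-type arrays. Among the 31 members with a probe well above background on all 12 arrays, 25 were called lower in double null and 27 in Bmi1 null colonies, while 9719 and 9432 of 21352 genes were. The wider spread of signals on mutant arrays moves with genotype, and its part in these falls was not tested. In bulk RNA, fewer cells of a type and less RNA per cell cannot be told apart.

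Cxcl16, a transmembrane chemokine made by epithelial cells, was the 1 member called higher in both mutants. It stood at 3.15, 3.26, 3.02 and 2.24 in double null and 2.46, 3.57, 3.38 and 3.69 in Bmi1 null colonies, against 0.19, 0.57, 0.09 and 0.33 in wild-type colonies. The mutants overlapped each other and lay above all wild-type values. The relative difference was 4.02 in double null (limma adjusted p = 4.23e-06) and 4.22 in Bmi1 null colonies (limma adjusted p = 1.72e-06). Both calls held in all 5 scalings. The other Cxcl16 probe was not called in either mutant, with fitted differences of -0.24 ± 0.33 and 0.04 ± 0.33 (SE, limma adjusted p = 0.506 and 0.92 over probes), so the probes of Cxcl16 disagreed. Cx3cl1 was called higher in double null colonies, with a relative difference of 2.35 (limma adjusted p = 0.000847), against wild-type values of -0.80, -0.99, -0.82 and -0.67. In Bmi1 null colonies its relative difference was 1.46, from a fitted difference of 0.22 ± 0.21 that was not called (SE, n = 4 each, limma adjusted p = 0.33). Cx3cl1 was called higher there in 3 of 5 scalings, up to 1.16. The double null call of Cx3cl1 was lost with slide as a fixed block (fitted difference 0.72, limma adjusted p = 0.0554).

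Of the other CXC ligands tested, Cxcl12, Cxcl13 and Cxcl14 were called lower in both mutants. Cxcl13, the B cell attractant, was well above background on 0 of 4 double null and 0 of 4 Bmi1 null arrays, at -7.50 to -6.46 and -7.25 to -6.06, and on all 4 wild-type arrays, at -2.97 to -2.53. As scaled for the fit, the fall of Cxcl13 was at least 12.9-fold in double null colonies (fitted difference -4.20, limma adjusted p = 1.24e-07). In Bmi1 null colonies it was at least 11.1-fold (fitted difference -3.85, limma adjusted p = 2.75e-07). These folds depend on the scaling: over 5 scalings the smallest differences were -0.35 in double null and -0.47 in Bmi1 null colonies. Cxcl13 was called lower in 4 of 5 scalings in double null and in all 5 in Bmi1 null colonies. Cxcl12, which acts on Cxcr4 and is mostly a product of mesenchyme, averaged -3.14 ± 1.0 in double null, -3.27 ± 0.63 in Bmi1 null and -0.90 ± 0.30 in wild-type colonies (SD, n = 4 each). Cxcl14, a chemokine abundant in epithelia, averaged -1.44 ± 0.40, -2.17 ± 0.07 and 0.16 ± 0.65 in the same order, and its double null values all lay above its Bmi1 null values without a call (difference 0.74 ± 0.30, SE, limma adjusted p = 0.173). Cxcl9, the interferon-induced ligand of Cxcr3, stood at -6.41, -5.03, -5.80 and -6.08 in double null, -7.46, -5.18, -5.82 and -7.38 in Bmi1 null and -2.06, -2.37, -1.91 and -2.05 in wild-type colonies. It was well above background on 1 array of each mutant and on all 4 wild-type arrays. Cxcl9 was called lower in both mutants in all 5 scalings, with relative differences of -2.34 and -3.12 as scaled for the fit. Its size depends on the scaling: the fitted difference ran from -3.74 to -0.70 in double null and from -4.36 to -1.01 in Bmi1 null colonies. Its companion Cxcl10 was well above background on 1 double null array and no other, and Cxcl17 on 1 wild-type array and no other, so neither was tested.

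The CC ligands of lymphoid and epithelial tissues fell in both mutants. All 9 tested (Ccl1, Ccl17, Ccl19, Ccl20, Ccl21a, Ccl22, Ccl25, Ccl27a and Ccl28) were called lower, on arrays where 59.7% of all genes in double null and 58.3% in Bmi1 null colonies were. Some lay close to the median shift of all genes, with relative differences of 0.09 and -0.42 for Ccl17, -0.15 and -0.23 for Ccl28 and -0.38 and -0.64 for Ccl27a (double null, then Bmi1 null). Ccl21a, a ligand of Ccr7, stood at -1.37, -3.21, -2.70 and -2.98 in double null and -2.09, -3.79, -1.57 and -1.79 in Bmi1 null colonies, against 2.24, 2.69, 2.05 and 1.98 in wild-type colonies. Its relative difference was -3.41 in double null (limma adjusted p = 1.63e-06) and -3.31 in Bmi1 null colonies (limma adjusted p = 2.83e-06). Both mutants lay below every wild-type array. Mouse Ccl21 and Ccl27 genes have near-identical copies, which the probes may not separate. Ccl20, which attracts cells with Ccr6, averaged -2.79 ± 0.20 in double null, -2.64 ± 0.18 in Bmi1 null and -1.03 ± 0.23 in wild-type colonies (SD, n = 4 each), near the median shift of all genes, with relative differences of -0.36 and -0.37. Ccl25, a ligand of Ccr9, had relative differences of -1.60 and -1.08, but its dimmer probe was not called in either mutant (0.17 ± 0.23 and 0.41 ± 0.23, fitted difference and SE). Ccl22 was well above background on no mutant array and fell at least 2.98-fold in double null and at least 2.77-fold in Bmi1 null colonies. These bounds are not far beyond the median shift of all genes (-1.39 and -1.24 on the log2 scale). The authors' table gave Ccl22 small positive differences in both mutants, 0.07 and 0.08.

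The 5 inflammatory CC ligands that act on Ccr1 or are close relatives of those that do (Ccl3, Ccl4, Ccl5, Ccl6 and Ccl9) were called lower in both mutants as well. The share of all genes called lower was 59.7% in double null and 58.3% in Bmi1 null colonies. Ccl5, a ligand known from T cells and inflamed epithelium, averaged -0.64 ± 0.30 in double null, -0.54 ± 0.57 in Bmi1 null and 1.51 ± 0.17 in wild-type colonies (SD, n = 4 each). Ccl9 averaged -3.32 ± 0.44, -3.56 ± 0.51 and -0.52 ± 0.27 in that order, and for both genes neither mutant overlapped wild type. Ccl3 was well above background on no mutant array and fell at least 2.92-fold in double null and at least 3.11-fold in Bmi1 null colonies. These bounds, too, are not far beyond the median shift of all genes (-1.39 and -1.24 on the log2 scale). With quantile normalization the differences of Ccl3 in double null and of Ccl4 in both mutants were positive and not called. Of 5 scalings, Ccl3 was called lower in 2 in double null and 3 in Bmi1 null colonies, and Ccl4 in 1 and 2. Ccl6 in Bmi1 null colonies had a relative difference of 0.02, at the median shift of all genes, and was called lower in 2 of 5.

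The monocyte and eosinophil attractants (Ccl2, Ccl7, Ccl8, Ccl11, Ccl12 and Ccl24) were the CC ligands with the fewest calls. In Bmi1 null colonies 5 of 6 were called lower and in double null colonies 3 of 6, with Ccl7, Ccl11 and Ccl24 not called there. The shares of all genes called lower were 58.3% and 59.7% in that order. Ccl8 fell in both mutants and averaged -4.64 ± 0.80 in double null, -4.01 ± 0.66 in Bmi1 null and -1.39 ± 0.56 in wild-type colonies (SD, n = 4 each). Ccl24, which like Ccl11 acts on Ccr3, was not called in either mutant on its brighter probe, with averages of -0.20 ± 0.38, -0.11 ± 0.41 and -0.18 ± 0.32 in the same order. Its dimmer probe was called lower in both, with fitted differences of -0.96 ± 0.29 and -0.96 ± 0.29 (SE, limma adjusted p = 0.00738 and 0.00757 over probes). Ccl12 changed direction with the scaling: it was called lower in both mutants with the 75th percentile, and higher with quantile normalization (1.90 and 1.46) and in the authors' table (0.41 and 0.30). The size of the Ccl7 difference rests largely on 1 array in Bmi1 null colonies, where replicate 2 stood at -5.31 and the others between -2.26 and -1.69. The other Ccl7 probe, on the same arrays, was called lower there as well, at -1.53 ± 0.47 (SE, limma adjusted p = 0.00881 over probes).

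**Figure D5:**
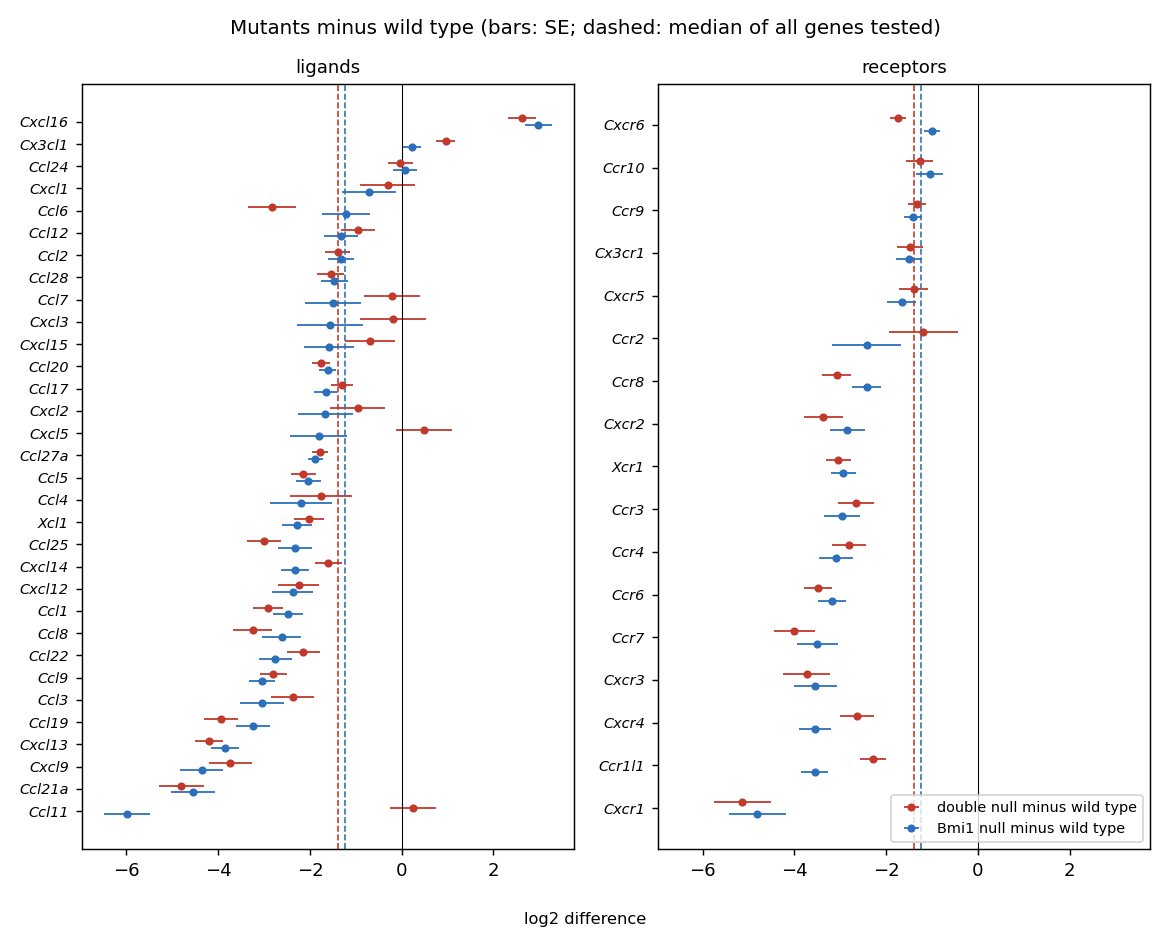
Log2 differences (horizontal axis) of double null (red) and Bmi1 null (blue) minus wild-type colonies for the 32 ligands tested (left) and 17 of the receptors (right), with bars for the SE and dashed lines at the median of all genes, -1.39 and -1.24. Every receptor plotted lies left of 0, down to -5.13, and Cxcl16 lies farthest to the right.

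All 18 receptors tested were called lower in Bmi1 null colonies and 17 of 18 in double null colonies, the exception being Ccr2. Of all genes, 58.3% and 59.7% were called lower in that order. The receptors' median fitted difference was -2.74 in double null and -2.95 in Bmi1 null colonies. It was -1.76 and -1.96 for the 32 ligands and -1.39 and -1.24 for all genes. Cxcr1, a neutrophil receptor, stood at -4.83, -7.50, -6.96 and -7.84 in double null and -6.81, -7.81, -5.43 and -5.77 in Bmi1 null colonies, against -1.30, -1.88, -1.62 and -1.81 in wild-type colonies. It was well above background on 1 array of each mutant and all 4 wild-type arrays. The relative differences were -3.74 in double null (limma adjusted p = 7.09e-06) and -3.57 in Bmi1 null colonies (limma adjusted p = 1.39e-05). Over 5 scalings the fitted difference of Cxcr1 ran from -5.13 to -1.22 in double null and from -4.80 to -1.15 in Bmi1 null colonies. Cxcr1 was called lower in all 5. Its neighbour in function, Cxcr2, averaged -3.70 ± 0.64 over 3 double null arrays, -3.17 ± 0.73 over 4 Bmi1 null and -0.33 ± 0.43 over 4 wild-type arrays (SD). The mutants lay below every wild-type array for both genes.

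Ccr7, the receptor of Ccl19 and Ccl21, stood at -4.35, -6.79, -5.65 and -5.16 in double null and -4.82, -5.87, -4.58 and -4.67 in Bmi1 null colonies, against -1.23, -1.38, -1.42 and -1.92 in wild-type colonies. It was well above background on 2 double null, 3 Bmi1 null and 4 wild-type arrays. Its relative differences were -2.61 and -2.26, and they were called in all 5 scalings.

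Cxcr4, which holds cells near sources of Cxcl12, averaged -3.35 ± 0.33 over 3 double null arrays, -4.27 ± 0.79 over 4 Bmi1 null and -0.72 ± 0.23 over 4 wild-type arrays (SD). The monocyte receptor Ccr2 was well above background on 1 double null, 0 Bmi1 null and 3 wild-type arrays, and against wild type it fell at least 2.36-fold in Bmi1 null colonies. That bound is about the size of the median shift of all genes (-1.24 on the log2 scale). The direction of the fall was not kept by quantile normalization (0.21) or the authors' table (0.06). In double null colonies Ccr2 was at -1.19 and not called, and the same 2 settings called it higher (1.68 and 0.46). Ccr10, the receptor of Ccl27 and Ccl28, lay close to the median shift of all genes, with relative differences of 0.12 in double null and 0.19 in Bmi1 null colonies, and so did Ccr9, with 0.08 and -0.17. Cx3cr1 (-0.08 and -0.25), Cxcr5 (-0.003 and -0.42) and Cxcr6 (-0.34 and 0.24) were near it too. The Ccr10 calls were lost in both mutants under 3 other scalings (median, quantile and the authors' table).

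Genes on either side of the chemokines were counted from lists. Of 10 chemokine-related genes outside the rule (atypical receptors and other ligands), 0 were called higher and 1 lower between the mutants (double null minus Bmi1 null), the scavenging receptor Ackr4 at -1.15 ± 0.27 (SE, limma adjusted p = 0.0242). Of 23 cytokines and receptors upstream of chemokine genes, 0 were higher and 1 lower, Il17a, which was well above background on no array of either mutant. Of 21 genes of the NF-kB pathway, the feedback inhibitor Tnfaip3 was higher (0.82 ± 0.20, SE, limma adjusted p = 0.0252) and the adaptor Traf6 lower (-0.68 ± 0.19, SE, limma adjusted p = 0.0487). Of 12 interferon-driven factors none was called in this comparison, and of 25 genes of receptor signalling the G protein subunit Gng2 alone was, higher at 0.93 ± 0.19 (SE, limma adjusted p = 0.0126). With 7.43% of all genes called, these counts are near or under the background.

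Against wild type, 59.7% of all genes were called lower and 25.7% higher in double null colonies. In Bmi1 null colonies the shares were 58.3% lower and 25.2% higher. The chemokine-related genes outside the rule were mostly lower: 6 lower and 2 higher in double null, 7 and 2 in Bmi1 null colonies. Their median fitted differences were -1.96 and -1.60. Ackr1, Ackr2, Ackr4 and Cmklr1 were called lower in both mutants, and Ccrl2 in Bmi1 null colonies only. The upstream, NF-kB, interferon and receptor signalling lists went in both directions, unlike the receptors. The upstream cytokine list had 10 members called higher and 8 lower in each mutant, with median fitted differences of 0.25 in double null and 0.06 in Bmi1 null colonies. Among its inducers of chemokine genes, Il1b had a fitted difference of -2.49 ± 0.34 in double null and -2.07 ± 0.34 in Bmi1 null colonies, and Tnf -1.73 ± 0.31 and -1.74 ± 0.31 (SE, n = 4 each), all called lower. The NF-kB list had 8 higher and 6 lower in double null and 10 higher and 7 lower in Bmi1 null colonies, and the receptor signalling list 13 and 9, and 10 and 9.

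Leukocyte markers moved with the chemokine receptors. Of 40 tested markers in 6 leukocyte lists, 37 were called lower than wild type in double null and 38 in Bmi1 null colonies. Of all genes, 59.7% and 58.3% were. The markers' median fitted differences were -2.24 and -2.13, against -1.39 and -1.24 for all genes. Between the mutants 0 of the 40 markers were called in limma, against 7.43% of all genes. The markers' summed linear signal was 11.2 to 47.5 in double null, 10.5 to 33.5 in Bmi1 null and 34.6 to 77.0 in wild-type colonies, in units of each array's 75th percentile. The neutrophil granule gene Ltf made up 6.09 to 41.1, 4.93 to 24.9 and 2.33 to 45.5 of it in that order and was not called. Without the neutrophil list, a choice made after seeing the values, the sums were 4.76 to 8.37 in double null and 5.16 to 8.09 in Bmi1 null colonies, against 27.6 to 32.8 in wild-type colonies, with no overlap between mutants and wild type. The pan-leukocyte marker Ptprc averaged -4.85 ± 1.40 in double null, -5.51 ± 0.62 in Bmi1 null and -1.08 ± 0.19 in wild-type colonies (SD, n = 4 each). Csf3r, Mrc1 and Ms4a1 were well above background on no array of either mutant, and in wild-type colonies 40 of the 41 listed markers were so on all 4 arrays. On wild-type arrays 94.6% of all probes were well above background, so 40 of 41 is near the background share. The 7 endothelial markers were all called lower in both mutants, whereas 11 of 12 epithelial markers were called higher in both and none lower. Among all genes, 25.7% were called higher in double null and 25.2% in Bmi1 null colonies. The 10 fibroblast and mesenchymal markers were mixed: 4 were called lower and 1 higher in double null, and 5 and 1 in Bmi1 null colonies. The part of other cell types in the chemokine values was not tested.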

How the data were processed

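Total RNA of 12 single colonies went through whole transcriptome amplification and Cy3 labelling before hybridisation to 1-colour arrays, per the labels' protocols. The authors deposited scanner output from Feature Extraction 10.7.3.1 (protocol GE1_107_Sep09), per the file headers, whose processed signal is a background-subtracted linear intensity. The authors also deposited a table of log2 values, with column medians of 7.21 to 7.24, which served as an alternative scaling. How they were normalized was not stated in the labels or headers used here.

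Groups came from the sample titles. Control spots were left out and outlier spots set to missing. Double null replicate 1 had 1336 outlier spots, against 55 to 132 on every other array. The probes used for Cxcr2, Cxcr3 and Cxcr4 had no value on it. Each array's 75th percentile of log2 processed signal was subtracted, spots of the same probe were averaged, and a probe was kept if well above background on at least 3 of 4 arrays of 1 genotype, which left 39338 probes. Of 41174 probes, 24844 had 1 symbol through the RefSeq table of GRCm38.p6, 0 had several and 16330 had none, and the brightest probe stood for each gene. All 3 genotypes were fitted together with limma 3.58.1 in R 4.3.3 (9 residual degrees of freedom, eBayes) and p-values were adjusted by Benjamini-Hochberg over 31064 genes. The fit was tested on simulated data. The number of arrays limits the precision. Median signal was 63.2 to 157 in double null, 82.8 to 190 in Bmi1 null and 109 to 210 in wild-type arrays.

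Alternatives were normexp (offset 50, on spot medians, since spot means were not used here), median and quantile scaling, other filters and probe rules, slide and replicate blocks, and leaving out each array. The members and lists were chosen with earlier results of these data known. Values in every sample were shown for members called between the mutants and for the ELR ligands. They were also shown for the reported members with the largest changes in both mutants, except Cxcl13, which was given as ranges. The header's build, mm9, was not used for coordinates. The values of 1 member, which the counts include, are not reported here.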

Additional observations from a re-analysis of the deposited data

Results flagged for a closer look

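Of 73 sets of 4 arrays checked (1 member in 1 genotype), 4 held an array that stood far from the other 3 by Dixon's criterion, where chance flags about 1 in 20 sets. Ccl7 stood at -5.31 in Bmi1 null replicate 2, below the other 3 Bmi1 null arrays. Ccl12 stood at -6.40 in Bmi1 null replicate 4, below the others, and at -4.22 in double null replicate 1, above the others. Cxcr4 stood at -3.09 in Bmi1 null replicate 3, above the others.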

How the results depend on the processing

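Of 2669 values of single members under alternatives, 2463 kept their direction and side of the threshold, 105 lost the call, 27 gained it and 74 changed direction, and causes were not tested. Against wild type, quantile normalization turned the Bmi1 null differences of Ccl12 (1.46), Ccl4 (0.16), Ccr2 (0.21), Cxcl15 (0.35), Cxcl2 (0.56), Cxcl3 (1.05), Cxcl5 (0.42) and Cxcr5 (0.078) and the double null differences of Ccl12 (1.90), Ccl22 (0.34), Ccl24 (0.092), Ccl3 (0.22), Ccl4 (0.64), Ccl7 (0.75), Ccr2 (1.68), Cxcl15 (1.25), Cxcl2 (1.29), Cxcl3 (2.22) and Cxcr5 (0.39) to positive. The authors' table did so in Bmi1 null colonies for Ccl12 (0.30), Ccl22 (0.079), Ccl4 (0.20), Ccl7 (0.14), Ccr2 (0.058), Cxcl15 (0.026), Cxcl2 (0.18), Cxcl3 (0.29), Cxcl5 (0.0995) and Cxcr5 (0.022), and in double null colonies for Ccl12 (0.41), Ccl22 (0.073), Ccl4 (0.18), Ccl7 (0.74), Ccr2 (0.46), Cxcl15 (0.36), Cxcl2 (0.46), Cxcl3 (0.65) and Cxcr5 (0.070). Median scaling did so for Cxcl1 in Bmi1 null colonies (0.23) and in double null colonies for Ccl12 (0.044), Ccl24 (0.98), Ccl7 (0.79), Cxcl1 (0.69), Cxcl15 (0.32), Cxcl2 (0.041) and Cxcl3 (0.81). In double null colonies normexp gave Ccl7 0.023, Ccr2 0.089 and Cxcl3 0.20, slide as a fixed block gave Cxcl1 0.65 and Cxcl3 0.88, and the replicate block gave Ccl7 0.13. Ccl24 in Bmi1 null colonies turned negative with the mean over its probes (-0.45), the replicate block (-0.17) and slide as a fixed block (-0.099). When each array was left out, Ccl24 ran from -0.18 to 0.12 in double null and from -0.051 to 0.21 in Bmi1 null colonies, and in double null colonies Cxcl1 ran from -0.64 to 0.18 (positive without double null replicate 4) and Cxcl3 from -0.58 to 0.67 (positive without double null replicate 4 or wild-type replicate 1). Ccl11 in double null against wild-type colonies was -0.24 with slide as a fixed block and -0.23 to 0.78 when each array was left out, negative without double null replicate 4. It was called higher there with median scaling (1.25), quantile normalization (1.34) and the authors' table (1.09). Between the mutants, Ccl1 was at 0.62 and Ccl8 at 0.43 with normexp, Ccl2 at 0.0032 in the authors' table, 0.056 with slide as a fixed block and -0.24 to 0.12 when each array was left out (positive without Bmi1 null replicate 4), Cxcl1 at -0.047 to 0.89 (negative without Bmi1 null replicate 3), and Ccr3 at -0.13 with slide as a fixed block and -0.098 to 0.71 when each array was left out (negative without Bmi1 null replicate 4).

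Against wild type, members called higher in Bmi1 null colonies numbered 3 with median scaling, quantile normalization or the authors' table, against 1, and in double null colonies 5, 9 and 7, and 1 with slide as a fixed block, against 2. On probes well above background on all 12 arrays, 27 of 31 were lower in Bmi1 null and 25 of 31 in double null colonies. The relative median in Bmi1 null colonies was -0.53 with normexp, -0.72 in the authors' table, -1.57 on those probes and -0.86 within slide 2, and in double null colonies -1.10 with quantile normalization and -1.44 on those probes. Between the mutants, 5 members were higher with the mean over a gene's probes, and 1 with slide as a fixed block or with the 2 genotypes fitted alone. In the same comparison 0 were lower with normexp, median or quantile scaling, the authors' table, slide as a fixed block, the replicate block or the 2 genotypes alone, and 2 on those probes. Leaving out each array gave 42 to 46 lower and 1 higher in Bmi1 null, 37 to 41 lower and 2 higher in double null against wild-type colonies, and 1 to 4 higher and 0 to 2 lower between the mutants. The relative medians then ran from -1.22 to -0.95, from -0.71 to -0.56 and from 0.086 to 0.21.

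Same-numbered samples share only a number: correlations of their deviations were -0.14 to 0.22. With the replicate block 1348 genes were called between the mutants, against 2308 without it, and of members 2 were higher and 0 lower. Genes called between the mutants numbered 1076 with normexp, 1393 with quantile normalization, 270 with slide as a fixed block and 936 with the 2 genotypes alone. Of genes called against wild type, 30.1% and 30.2% were higher in double null and Bmi1 null colonies, and 45.8% and 46.9% with median scaling. Members not well above background on any array of a genotype have only a bound there.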
